A study of Mus musculus with 16 samples.

Results

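The Rab genes encode small GTPases of the Ras superfamily that direct the traffic of membranes between the compartments of a cell. Their members were chosen by name, as the rows of the deposited table whose symbol is Rab followed by a number and, at most, a letter and a further digit. This gave 47 of 17951 genes. The name rule itself used no measured value, but the authors had dropped genes of low expression from the table. It was set with earlier results of these data known. The 47 were placed by the known site of action of the protein in 5 classes: early endosomes (6 genes), late endosomes, lysosomes and phagosomes (10), recycling endosomes (8), secretory routes from the endoplasmic reticulum through the Golgi to exocytosis (17), and other or little studied roles (6). The mouse reference names 59 protein-coding genes of this form, and the other 12 (Rab15, Rab17, Rab25, Rab27b, Rab30, Rab33a, Rab38, Rab39b, Rab3b, Rab3c, Rab44 and Rab9b) were not analysed here.

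A Rab protein cycles between a GDP-bound form held in the cytosol and a GTP-bound form on a membrane, where it recruits effector proteins such as tethers and motors. Exchange factors switch it on, and GTPase-activating proteins switch it off. In phagocytes such as microglia, the resident macrophages of the brain, an engulfed particle passes from a Rab5-bearing to a Rab7-bearing phagosome before fusion with lysosomes, while recycling Rabs return membrane to the surface.

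RNA sequencing was done on microglia sorted as live single cells that carried Cd11b, Cd45 and Cx3cr1, from the brains of mice injected with methoxy-X04 (Me-X04), a dye that binds the beta sheets of amyloid. The libraries fell into 3 groups. Microglia of wild-type mice (WT, 7 libraries, labelled 2 months old) were compared with microglia of 5xFAD mice (TG, labelled 6 months old) that had taken up no dye (TG Me-X04-, 5 libraries) or had taken up dye (TG Me-X04+, 4 libraries). 5xFAD mice are a transgenic model of amyloid deposition driven by the neuronal Thy1 promoter. Expression of the transgenes in the sorted cells was not examined. By these labels genotype and age cannot be told apart in any comparison with WT. The methods of the study give ages other than the labels, while its figure legend for this experiment gives 6 months for the 5xFAD mice. Same-numbered TG libraries carry the same animal label for numbers 1 to 4, whereas the WT libraries came from other animals. The main fit did not use this pairing and treated all libraries as separate. A block by animal was run only as an alternative.

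Values are log2 RPKM, the log2 of reads per kilobase of gene relative to a scaled library size, and a log2FC is the difference between the mean log2 RPKM of groups. A gene was called when limma's adjusted p, taken over all 17951 genes, was under 0.05 and the log2FC was at least 0.7 in size. Libraries held 15623664 to 27579017 reads on genes, and the percentage of reads on mitochondrial genes was 12.6 to 31.3 for WT, 20.6 to 44.8 for TG Me-X04- and 31.3 to 56.8 for TG Me-X04+. The libraries also parted into set A (7 libraries) and set B (9 libraries) along the first principal component of their deviations from the group means, which held 37.8% of that variance. Each group had 2 to 4 libraries in each set. Libraries of set A had no read on 503 to 1831 genes, and those of set B on 55 to 524. The log2FC within set A and within set B differed by more than 1 for 12 of 47 Rab genes between the TG populations, for 6 of 47 in TG Me-X04- against WT and for 11 of 47 in TG Me-X04+ against WT, and for 2, 1 and 2 of the 30 members with a mean of at least 2 log2 RPKM. For the first comparison the values of the 12 are given set by set beside each member, with no test. The Me-X04 libraries of the study were sequenced on 2 instruments, and which library ran on which was not given in the sources used here. The 10 microglial markers summed to 4080 to 8170 RPKM in each library, all of them detected, and no list of markers for neurons, astrocytes, oligodendrocytes, endothelial cells, border macrophages or other leukocytes exceeded 22.2 RPKM in any library.

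Rab7b and Rab39, both placed with the late compartment, were the only members called between the TG populations. The first 150 coding bases of Rab7b and of Rab7, which shares its name and was the most highly expressed Rab gene of these microglia, are shown because the Rab7b result depends on reads being told apart between the pair. The sequences come from the reference transcripts on GRCm38, 5′ to 3′. For Rab7b they cover chr1:131697014-131697066 and chr1:131697829-131697925 on the plus strand, the first 2 of 5 coding exons. For Rab7 they cover chr6:88013638-88013690 and chr6:88012337-88012433 on the minus strand, also the first 2 of 5. Capitals mark the 60 of 150 aligned positions at which the bases of the pair differ.
Rab7b: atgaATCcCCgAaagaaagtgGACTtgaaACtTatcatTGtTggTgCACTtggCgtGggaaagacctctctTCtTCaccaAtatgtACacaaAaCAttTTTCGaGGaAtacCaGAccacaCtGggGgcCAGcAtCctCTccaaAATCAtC
Rab7: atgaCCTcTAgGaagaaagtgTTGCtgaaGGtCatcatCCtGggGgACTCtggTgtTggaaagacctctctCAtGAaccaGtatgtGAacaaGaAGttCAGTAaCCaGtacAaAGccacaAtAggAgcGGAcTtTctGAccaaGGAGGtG
Over the whole coding sequences, of 597 and 621 bases, 353 of 621 aligned columns (56.8%) were identical, and the longest identical run was 18 bases. No stretch of 50 bases is therefore common to the aligned coding sequences. None of the 50-base words of the Rab7b transcripts occurred in another gene, whereas 12.7% of those of Rab7 did, mostly in the processed pseudogene Rab7-ps1.

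Rab7b, a late endosomal GTPase that carries cargo back to the Golgi and is known to dampen Toll-like receptor signalling in macrophages, rose from WT to TG Me-X04- and again from TG Me-X04- to TG Me-X04+. In WT its values ran from -5.59 through a median of -4.06 to -3.02 log2 RPKM (n = 7). In TG Me-X04- they were -0.29, -1.13, -1.39, -0.52 and -0.84 log2 RPKM, and in TG Me-X04+ 1.87, 2.85, 2.04 and 2.57 log2 RPKM. The 3 groups did not overlap anywhere: the highest WT library lay below the lowest TG Me-X04- library, and the highest TG Me-X04- library below the lowest TG Me-X04+ library. In reads, the 7 WT libraries held 31 in all and between 0 and 12 each, the 5 TG Me-X04- libraries 40 to 79 each, and the 4 TG Me-X04+ libraries 222 to 643 each.

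**Figure D1:**
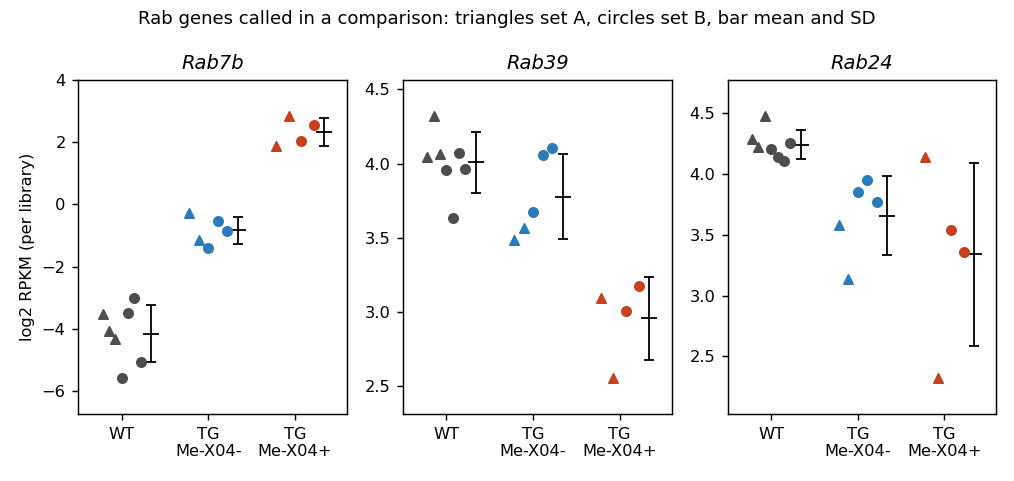
The log2 RPKM of Rab7b, Rab39 and Rab24 in each library, with WT in grey, TG Me-X04- in blue and TG Me-X04+ in red, triangles for set A, circles for set B, and a bar for the mean and SD of each group. Rab7b has 3 separate levels, with means of -4.16, -0.83 and 2.33, the TG Me-X04+ points of Rab39 lie below all others, and the Rab24 points of TG Me-X04+ spread from 2.32 to 4.14.

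Between the TG populations Rab7b differed by a log2FC of 3.17 (SE 0.54, limma adjusted p = 0.0023), or 8.98-fold. Between TG Me-X04- and WT it differed by 3.33 (SE 0.47, limma adjusted p = 0.0029), and between TG Me-X04+ and WT by 6.49 (SE 0.50, limma adjusted p = 2.6e-07). The last comparison shares its samples with the others and adds no independent evidence. Taken set by set, the TG populations differed by a log2FC of 3.07 (set A) and 3.22 (set B), and the TG Me-X04- and WT libraries by 3.27 and 3.38. Because the WT values rest on few reads, the folds against WT depend on the small prior added to them. With 0 to 12 reads in each WT library, Rab7b may have passed the authors' filter on low expression only through the TG groups. Its calls against WT are not independent of that filter. With log2(RPKM + 1), the log2FC was 1.95 between the TG populations and still called, but 0.56 between TG Me-X04- and WT and not called (limma adjusted p = 0.24). In bulk RNA, more cells of a type that carries a transcript and more of that transcript per cell cannot be told apart. Border macrophage markers (all 4 of Mrc1, Pf4, Cd163 and Lyve1 detected) summed to 2.14 to 4.84 RPKM in WT, 1.43 to 5.76 in TG Me-X04- and 2.42 to 18.6 in TG Me-X04+, and their part in the Rab7b difference was not tested.

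The Rab7b gene (ENSMUSG00000052688) lies at chr1:131688695-131715439 on the plus strand of GRCm38 and overlaps no other annotated gene. The nearest gene, Ctse, the endosomal protease cathepsin E, ends 13190 bases upstream on the same strand. Ctse had a log2FC of 3.20 between the TG populations (limma adjusted p = 0.034) and was called. Against WT its log2FC in TG Me-X04- was 3.20 and was not called (limma adjusted p = 0.14). The gene on the other side, Slc26a9, 28583 bases away, was not analysed here.

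Rab39, a GTPase linked to phagosome acidification and autophagy in macrophages, was lower in TG Me-X04+ microglia. Its values were 3.10, 2.56, 3.01 and 3.17 log2 RPKM in TG Me-X04+ and 3.48, 3.57, 3.67, 4.06 and 4.11 in TG Me-X04-. In WT they ran from 3.63 through a median of 4.05 to 4.32 log2 RPKM. Every TG Me-X04+ library lay below every library of the other groups, while TG Me-X04- and WT overlapped. Rab39 fell by 0.82 on the log2 scale in TG Me-X04+ against TG Me-X04- (SE 0.20, limma adjusted p = 0.024) and by 1.05 against WT (SE 0.19, limma adjusted p = 9.2e-04). The log2FC of TG Me-X04- against WT was -0.23, with a 95% interval of -0.60 to 0.14, with -0.62 among set A libraries and 0.04 among those of set B.

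The difference between the TG populations was present in both sets, at a log2FC of -0.70 for set A and -0.86 for set B. It was not called when the WT libraries were left out of the fit (limma adjusted p = 0.10), nor without TG Me-X04- replicate 4 (0.063), TG Me-X04- replicate 5 (0.070) or TG Me-X04+ replicate 2 (0.079). The difference from WT was called in each of 26 alternatives. Rab39 (ENSMUSG00000055069) lies at chr9:53684110-53706232 on the minus strand, and the processed pseudogene Rps6-ps3 lies inside its span on the same strand. None of the 50-base words of Rab39 transcripts occurred in another gene. Rps6-ps3 moved the other way, with a log2FC of 1.12 between the TG populations (limma adjusted p = 0.011).

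These were 2 of 47 Rab genes called between the TG populations (4.26%), beside 5.49% of all genes tested. By direction, 1 of 47 was called higher, beside 3.44% of all genes, and 1 of 47 lower, beside 2.06%. At an unadjusted p under 0.05 there were 4 of 47, beside 18.7%. In the same comparison 3 of 47 had values that did not overlap between the groups (Rab7b, Rab39 and Rab12), beside 7.93% of all genes. The share of Rab genes called was thus near that of the whole table. Rab12, which sends recycling endosomes to lysosomes, had 3.50, 3.61, 3.80 and 3.84 log2 RPKM in TG Me-X04+ and 3.16 to 3.45 in TG Me-X04-. Its log2FC of 0.36 was not called (limma adjusted p = 0.40), and its WT values, from 3.16 to 4.35, spanned both groups.

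Between TG Me-X04- and WT, 1 of 47 was called (2.13%, Rab7b), beside 0.201% of all genes, and called higher, beside 0.189%. Rab7b may be in the table only through the TG groups, so this share is no evidence about the Rab genes. None was called lower by limma, beside 0.0111%, and 2 of 47 had an unadjusted p under 0.05, beside 5.18%. Rab24 and Rab7b did not overlap between these groups, 2 of 47, beside 1.06% of all genes. Between TG Me-X04+ and WT, 3 of 47 were called (6.38%, Rab7b higher, Rab39 and Rab24 lower), beside 14.3% of all genes. The share called higher over all genes was 8.25% and lower 6.02%, and 9 of 47 Rab genes had an unadjusted p under 0.05, beside 27.8%. Here 3 of 47 did not overlap (Rab7b, Rab39 and Rab23), beside 10.5% of all genes.

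Rab24, a Rab protein with low GTPase activity that is linked to autophagy, was called lower in TG Me-X04+ than in WT. Its WT values were tight, from 4.11 through a median of 4.22 to 4.48 log2 RPKM. They were 3.58, 3.13, 3.85, 3.95 and 3.77 in TG Me-X04- and 4.14, 2.32, 3.54 and 3.36 in TG Me-X04+. All 5 TG Me-X04- libraries lay below the lowest WT library, whereas TG Me-X04+ replicate 1 reached the WT range. Rab24 fell by 0.90 on the log2 scale in TG Me-X04+ against WT (SE 0.26, limma adjusted p = 0.025). The log2FC of TG Me-X04- against WT was -0.58 (SE 0.24, limma adjusted p = 0.85), and that between the TG populations was -0.32 (limma adjusted p = 0.60). Within set A the log2FC against WT was -0.97 for TG Me-X04- and -1.10 for TG Me-X04+, and within set B -0.32 and -0.73. Without TG Me-X04+ replicate 2, the lowest library, the difference from WT was -0.56 and was not called (limma adjusted p = 0.097). Endothelial markers (Pecam1, Flt1 and Cdh5, 3 of the 5 listed) were at a sum of 2.31 to 12.6 RPKM for WT, 1.60 to 2.63 for TG Me-X04- and 1.22 to 7.86 for TG Me-X04+, and their part in the differences from WT was not tested.

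Rab24 (ENSMUSG00000034789) lies at chr13:55319743-55321946 on the minus strand and overlaps Prelid1 on the plus strand. Of its 50-base words, 49.6% also occur in Prelid1, and whether reads were counted by strand was not given in the sources used here, so its values are uncertain. Prelid1 had a log2FC of 0.68 in TG Me-X04+ against WT, which was not called (limma adjusted p = 0.31).

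The promoter windows of Rab39 and Rab24, the 2 members called lower, are shown with the matches to 3 motifs of factors active in macrophages. Each runs from 250 bases before to 20 bases after the RefSeq start on GRCm38.p6, 5′ to 3′ on the minus strand. They lie at chr9:53706213-53706482 (Rab39) and chr13:55321961-55322230 (Rab24). Capitals mark a motif found.
Rab39: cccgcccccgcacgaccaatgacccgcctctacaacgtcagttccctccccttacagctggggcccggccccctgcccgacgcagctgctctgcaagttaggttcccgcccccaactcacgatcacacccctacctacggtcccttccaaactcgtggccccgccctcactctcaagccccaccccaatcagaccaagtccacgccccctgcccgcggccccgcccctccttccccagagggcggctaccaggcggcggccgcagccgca
Rab24: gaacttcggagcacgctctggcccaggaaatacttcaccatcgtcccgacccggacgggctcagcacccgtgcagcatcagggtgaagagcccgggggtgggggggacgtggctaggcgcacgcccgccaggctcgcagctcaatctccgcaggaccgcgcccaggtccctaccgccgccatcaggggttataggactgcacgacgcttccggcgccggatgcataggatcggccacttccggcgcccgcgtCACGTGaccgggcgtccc
The motifs, searched on both strands of the whole window of 300 bases that runs to 50 bases after the start, were the E-box CACGTG, the PU.1 motif GAGGAAGT and the AP-1 motif TGAGTCA. Rab24 held the E-box, which 7.15% of 32851 RefSeq promoters held, and Rab39 held none of the 3. RefSeq promoters were matched for 40 of 47 members, 49 in all. The E-box occurred in 6 of the 49 (Rab20, Rab21, Rab23, Rab24, Rab27a and Rab5a), the PU.1 motif in 2 (Rab2b and Rab32, with 3.2% over all promoters) and the AP-1 motif in 1 (Rab34, with 5.2%). The other genes with an E-box had log2FC between -0.50 and 0.86 between the TG populations, none of them called, beside 5.49% of all genes.

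**Figure D2:**
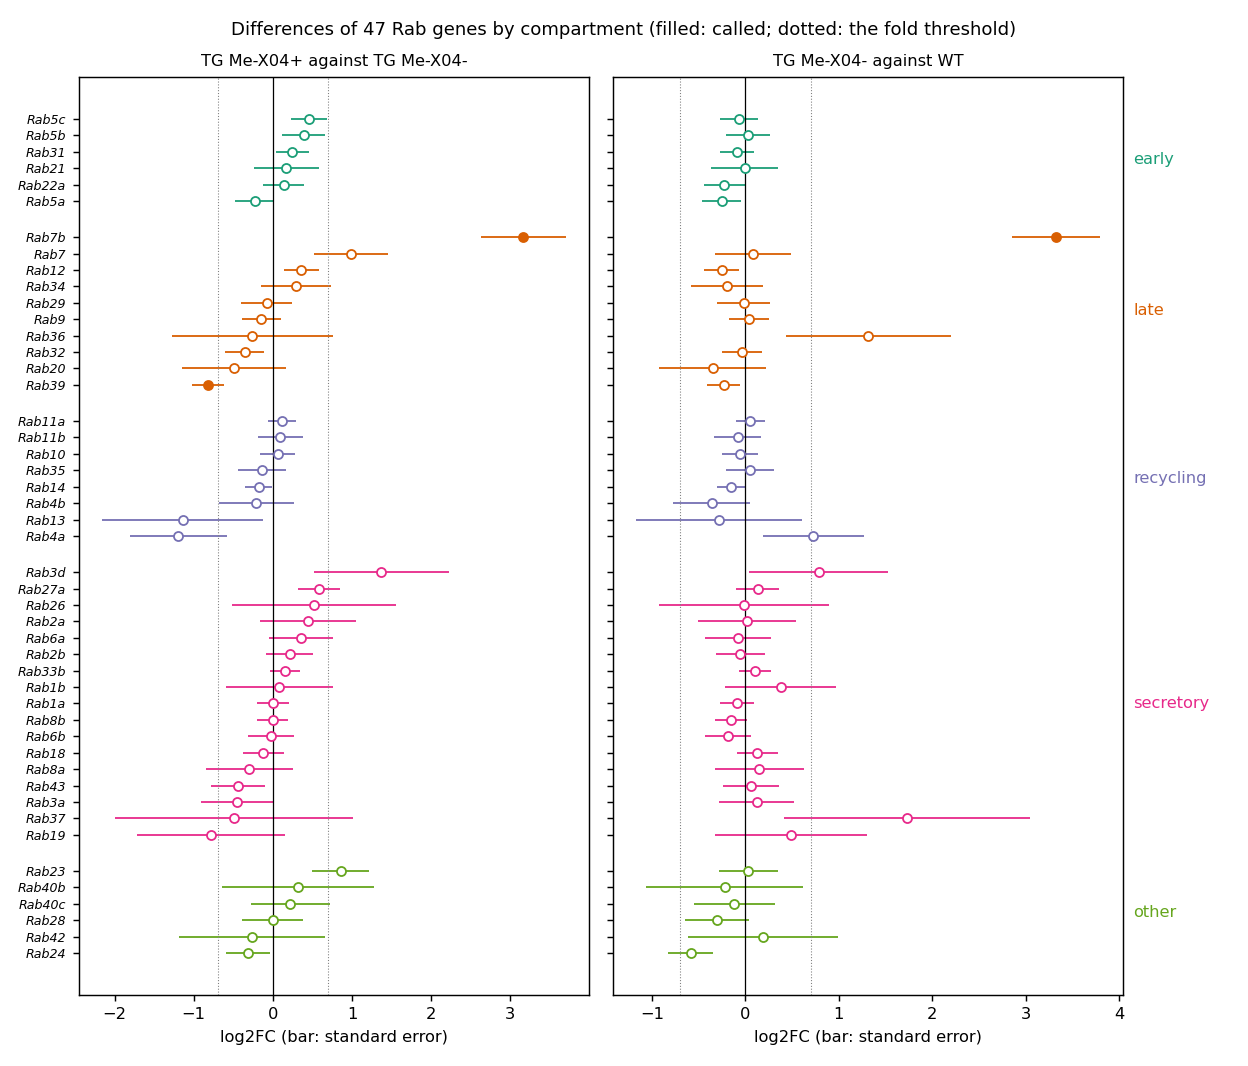
The log2FC of each of the 47 Rab genes with its standard error, ordered within 5 classes, for TG Me-X04+ against TG Me-X04- on the left and TG Me-X04- against WT on the right. Filled points were called and dotted lines stand at 0.7 either way: Rab7b and Rab39 on the left and Rab7b on the right are filled, and the points of most other members lie within 0.5 of zero.

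Most other members differed little between the groups. Between the TG populations, 37 of 47 Rab genes (78.7%) had a log2FC within 0.5 either way, against 51.8% of all genes. Among genes with a mean of at least 2 log2 RPKM, where standard errors are smaller, the counts were 27 of 30 Rab genes (90%) against 64.2% of all genes. The median log2FC of the Rab genes was 0.0027 beside -0.09 over all genes, with 24 members above 0 and 23 below. For TG Me-X04- against WT the medians were -0.02 and 0.01, and for TG Me-X04+ against WT 0.01 and -0.11. With library sizes taken as the reads off the mitochondrial genes, the median of all genes between the TG populations moved to -0.37 and that of the Rab genes to -0.27, so directions of small changes are relative to the scaling. Rab7b (2.89) and Rab39 (-1.09) were called under that scaling as well.

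Of the early endosomal Rabs, 5 of 6 had a log2FC above 0 between the TG populations, with a class median of 0.21. None was called, beside 5.49% of all genes. Rab5c, the highest in the class and a driver of early endosome fusion, had 4.26, 5.49, 4.91 and 5.07 log2 RPKM in TG Me-X04+ and 4.14, 4.96, 4.64, 4.25 and 4.40 in TG Me-X04-. These overlapped, and the log2FC of 0.46 was not called (limma adjusted p = 0.31). Its sister Rab5a had the lowest value of the class, a log2FC of -0.23, and Rab5b 0.39. Rab21, Rab22a and Rab31 lay from 0.13 to 0.25.

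Rab7, which fuses late endosomes and phagosomes with lysosomes, was the highest Rab gene in every group mean, at 6.66 ± 0.53 (SD, n = 7) log2 RPKM for WT, 6.75 ± 0.88 (SD, n = 5) for TG Me-X04-, and for TG Me-X04+ 7.73 ± 0.97 (SD, n = 4). Its libraries split by set. In set A the TG Me-X04- values were 7.59 and 7.82 and the TG Me-X04+ values 8.51 and 8.61. In set B they were 6.08, 6.14 and 6.10 against 6.69 and 7.12. Within each set TG Me-X04+ lay above TG Me-X04-, by 0.85 in set A and 0.80 in set B, while across the sets the groups overlapped.

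Without a term for the sets, the Rab7 log2FC of 0.98 (SE 0.47) was not called (limma adjusted p = 0.27), and its 95% interval ran from -0.0040 to 1.97. With the term it was 0.85 (SE 0.15, limma adjusted p = 0.0015) and was called, and no other of the 26 alternatives called it. Quantile normalization lowered it to 0.31. The sets were drawn from these same values and not from labels. The term therefore takes out spread by design for a gene that follows the sets, as Rab7 does. Its p-values with the term are likely too small and are not independent support. Against WT, Rab7 had a log2FC of 1.07 (limma adjusted p = 0.12), called with the term for the sets (0.97, limma adjusted p = 8.7e-05) and without TG Me-X04+ replicate 3 (1.42, limma adjusted p = 0.047). Rab7 made up 13.2 to 22.1% of the summed RPKM of all Rab genes in WT libraries, 13.5 to 26.3% in TG Me-X04- and 19.2 to 40.5% in TG Me-X04+.

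**Figure D3:**
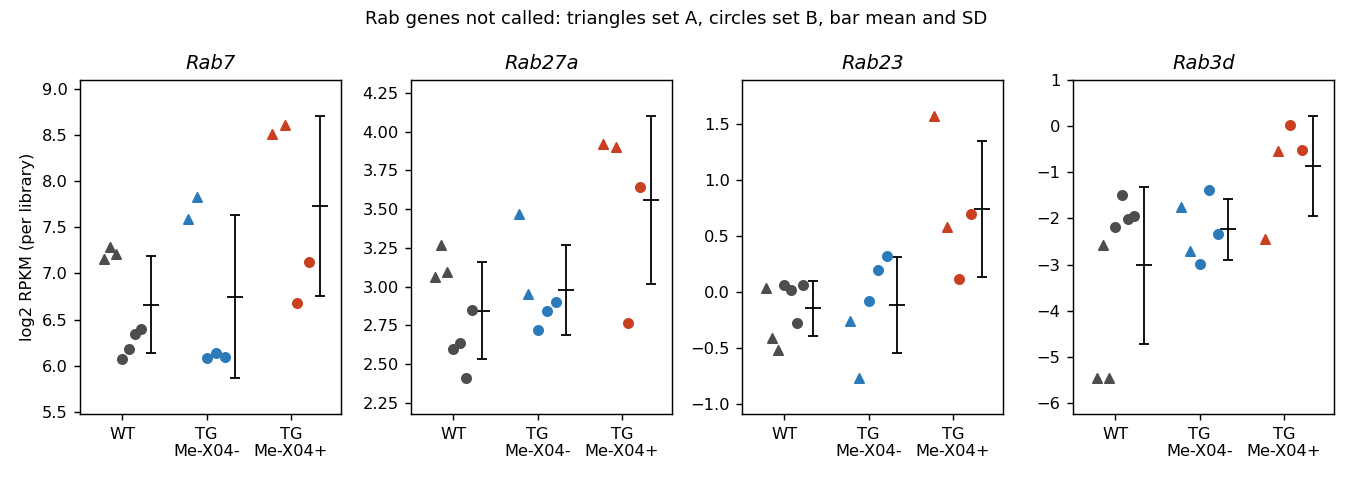
The log2 RPKM of Rab7, Rab27a, Rab23 and Rab3d, none called between the TG populations or against WT, drawn as in the plot of the called genes. The Rab7 points separate by set (triangles above circles) in every group, with TG Me-X04+ above TG Me-X04- inside each set, and the Rab3d points of WT reach down to -5.45, where no read was counted.

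The other late members had values on either side of 0. Rab32 (log2FC -0.36), Rab9 (-0.15), Rab29 (-0.08), Rab34 (0.29), Rab20 (-0.50) and Rab36 (-0.26) were not called between the TG populations. Rab32, which acts at lysosome-related organelles, had 2.80, 3.71, 3.97 and 3.09 log2 RPKM in TG Me-X04+ around a tight 3.65 to 3.84 in TG Me-X04-. Rab36 was near the limit of detection, with 0 to 40 reads a library. The late class held 24.7 to 31.2% of the summed Rab RPKM in WT, 25.6 to 32.6% in TG Me-X04- and 29.9 to 46% in TG Me-X04+, of which Rab7 was the largest part.

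The well expressed recycling Rabs had log2FC near 0. Rab10, the highest of the class, had 5.22, 4.66, 4.49 and 4.56 log2 RPKM in TG Me-X04+ and 4.86, 5.22, 4.16, 4.60 and 4.52 in TG Me-X04-, which overlapped in full. Its log2FC was 0.06 with a standard error of 0.22. Rab11a and Rab11b, the GTPases of slow recycling, had log2FC of 0.12 and 0.09, and Rab14 and Rab35 of -0.18 and -0.14.

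Rab4a, of the fast recycling route, had the lowest value of the class with a log2FC of -1.19 (SE 0.62, limma adjusted p = 0.32). Its TG Me-X04+ values were 1.38, 0.51, -0.0011 and -2.73 log2 RPKM, the last from 4 reads, against 0.37 to 1.43 in TG Me-X04-. Set A gave a log2FC of 0.04 and set B of -2.40. Rab13 had a log2FC of -1.14 and no read in the TG Me-X04+ libraries of set A, against 31 and 27 reads in those of set B, for a log2FC of -3.38 (set A) and 0.99 (set B). Over the whole table, these set A libraries had no read on 1831 and 1781 genes, and the set B ones on 524 and 450. Rab4b, at -0.21, shares 58.1% of its 50-base words, mostly with Gm21983, and its values are uncertain.

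Among the 17 secretory Rabs none was called in any comparison. Of all genes 5.49% were called between the TG populations, 0.201% in TG Me-X04- against WT and 14.3% in TG Me-X04+ against WT. The class median log2FC was 0.00 between the TG populations, 0.10 for TG Me-X04- against WT and 0.16 for TG Me-X04+ against WT. Rab1a, the ER-to-Golgi GTPase and the highest of the class, had 5.82, 6.19, 5.26 and 5.79 log2 RPKM in TG Me-X04+ and 5.83, 6.11, 5.43, 5.55 and 5.89 in TG Me-X04-. The values overlapped nearly in full, with a log2FC of 0.0027 (SE 0.21). Rab8b, an exocytic Rab, was as even, with a log2FC of -0.0017. Rab2a, at the ER and Golgi, followed the sets far more than the groups: in WT it was 6.58 to 6.64 in set A and 4.69 to 5.10 in set B.

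Rab27a, which docks secretory granules and exosome-bearing endosomes at the surface, had 3.92, 3.90, 2.76 and 3.64 log2 RPKM in TG Me-X04+ and 3.47, 2.95, 2.72, 2.84 and 2.90 in TG Me-X04-. TG Me-X04+ replicate 3 lay inside the range of the other population and the other 3 libraries above it. Its log2FC was 0.58 (limma adjusted p = 0.24) between the TG populations and 0.71 (limma adjusted p = 0.062) against WT. It was called against WT without WT replicate 2 or without TG Me-X04+ replicate 3.

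Rab3d, of regulated exocytosis, had the highest log2FC of the class at 1.37 (SE 0.85, limma adjusted p = 0.42). It was read 9, 42, 96 and 67 times in the TG Me-X04+ libraries, 11 to 38 times in TG Me-X04- and 0 to 36 times in WT. TG Me-X04+ replicate 1 was inside the range of the others and the remaining 3 were above it. Set A gave a log2FC of 0.74 and set B of 2.00. Against WT its log2FC of 2.15 was not called (limma adjusted p = 0.082), but it was called without TG Me-X04+ replicate 1 (2.68), under quantile normalization (2.49) and with a term for the sets (2.26). Rab19, with the lowest log2FC of the class (-0.78), ran from 0 to 59 reads within TG Me-X04+ alone, with a log2FC of -1.65 (set A) and -0.26 (set B). Rab6a (0.36), Rab2b (0.21), Rab33b (0.15), Rab1b (0.08), Rab6b (-0.02), Rab18 (-0.12), Rab8a (-0.30), Rab43 (-0.44), Rab3a (-0.45), Rab26 (0.52) and Rab37 (-0.49) made up the rest. Of these, 5 had log2FC of opposite sign in the sets, more than 1 apart. Rab37 had -3.43 in set A, where neither TG Me-X04+ library held a read, and 2.41 in set B. Rab3a had 0.75 in set A and -1.46 in set B. Rab8a (-0.77 and 0.37), Rab1b (-0.41 and 0.87) and Rab2b (-0.38 and 0.65) were lower in TG Me-X04+ in set A and higher in set B. Of the 50-base words of Rab43 and Rab2b, 74.5% and 57% occur in other genes, and those of Rab20, Rab33b, Rab6a and Rab11b share 22.9%, 21.2%, 19% and 13.6%, so these values are uncertain too.

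Of the members with other roles, Rab23, which acts at the primary cilium, had the highest log2FC between the TG populations, 0.86 (SE 0.36, limma adjusted p = 0.20). Its values were 1.57, 0.58, 0.12 and 0.70 log2 RPKM in TG Me-X04+, and -0.25, -0.77, -0.08, 0.20 and 0.33 for TG Me-X04-. The WT values ran from -0.52 to 0.07. All TG Me-X04+ libraries lay above all WT libraries, yet replicate 3 lay inside the TG Me-X04- range, and the difference from WT of 0.89 was not called (limma adjusted p = 0.093). Between the TG populations, set A gave a log2FC of 1.59 and set B of 0.26. Rab28, Rab40b, Rab40c and Rab42 had log2FC from -0.26 to 0.32, and Rab40b and Rab42 had a library without a read in every group. Rab40b had 13 and 13 reads in the TG Me-X04+ libraries of set A and 0 in both of set B, with a log2FC of 3.06 and -2.08, and Rab40c had 0.80 and -0.25.

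**Figure D4:**
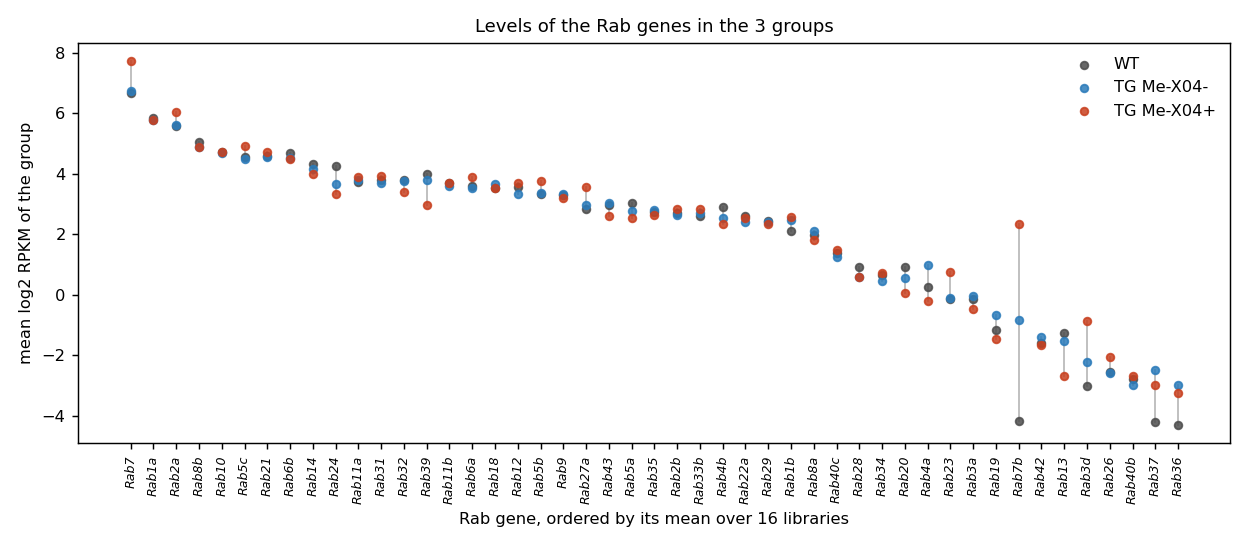
The mean log2 RPKM of each Rab gene in WT (grey), TG Me-X04- (blue) and TG Me-X04+ (red), with genes ordered from left to right by their mean over all 16 libraries. Rab7 leads at 6.66 to 7.73, the 3 means of most genes nearly coincide, and Rab7b, ranked 40 of 47, spans -4.16 to 2.33.

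By mean level, per length of gene, the order began with Rab7, Rab1a, Rab2a, Rab8b, Rab10 and Rab5c. Neighbours in this order could lie within their spread: Rab1a (5.85 ± 0.21, SD, n = 7, in WT), for example, did not separate from Rab2a (5.59 ± 0.95, SD, n = 7). Rab7b was near the bottom in WT, where only Rab37 (-4.22) and Rab36 (-4.31) had lower means, and at 2.33 in TG Me-X04+ it was level with Rab29 (2.33) and Rab4b (2.32). Members with at least 1 library at 0 reads numbered 7 in WT (Rab26, Rab36, Rab37, Rab3d, Rab40b, Rab42 and Rab7b), 4 for the TG Me-X04- group, and 6 for the TG Me-X04+ group, and no group had a member at 3 reads or fewer in all its libraries. The Rab genes together took 0.213 to 0.252% of reads on genes in WT, 0.197 to 0.258% in TG Me-X04- and 0.169 to 0.179% in TG Me-X04+. Of reads outside mitochondrial genes, the shares were 0.276 to 0.351%, 0.248 to 0.405% and 0.259 to 0.411%, which overlapped.

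The partners of the Rab cycle were described from a list of 132 genes in 5 classes, 118 of which were in the table. Between the TG populations 3 of 118 were called (2.54%), beside 5.49% of all genes. Myo5a, an actin motor that carries Rab-bound vesicles, rose from 1.57 ± 0.66 (SD, n = 5) to 4.08 ± 0.61 (SD, n = 4) log2 RPKM, a log2FC of 2.51 (SE 0.40, limma adjusted p = 0.0014). Its WT mean was 0.59, and the TG populations did not overlap. Rab11fip1, an effector of the Rab11 proteins on recycling endosomes, rose with a log2FC of 3.99 (SE 0.86, limma adjusted p = 0.011). This rests on 24 to 93 reads in TG Me-X04+ against 0 to 16 in TG Me-X04- and 0 to 18 in WT. The fold of Rab11fip1 therefore depends on the prior. Rab11fip1 may have passed the authors' filter on low expression only through TG Me-X04+, so its calls are not independent of that filter. Tbc1d9, of the family of GTPase-activating proteins, fell by 0.84 on the log2 scale (SE 0.17, limma adjusted p = 0.0089), from 4.25 ± 0.19 (SD, n = 5) to 3.41 ± 0.11 (SD, n = 4) log2 RPKM.

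By class, 2 of 45 effectors and 1 of 32 GTPase-activating proteins were called between the TG populations, beside 5.49% of all genes. The counts were 0 of 30 exchange factors, 0 of 8 delivery proteins and 0 of 3 kinases or phosphatases. At that share, classes of this size would hold few calls or none, so these counts do not tell the classes apart. At an unadjusted p under 0.05 the count over all classes was 16 of 118, beside 18.7% of all genes. Mon1a, part of the exchange factor of Rab7, had the lowest log2FC of its class at -2.12 (limma adjusted p = 0.16). Mon1a was read 0 to 73 times in TG Me-X04+ and 28 to 171 times in TG Me-X04-, so its fold depends on the prior. Gdi2, which holds Rab proteins in the cytosol, had a log2FC of 0.42 (limma adjusted p = 0.51). Between TG Me-X04- and WT limma called 0 of 118, beside 0.201% of all genes, with 6 of 118 at an unadjusted p under 0.05, beside 5.18%. Between TG Me-X04+ and WT 9 of 118 were called (7.63%), beside 14.3% of all genes. Myo5a, Rab11fip1, Rilpl2 and Mical1 were higher there, and Tbc1d9, Usp6nl, Evi5l, Dennd2c and Tgfbrap1 lower.

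**Figure D5:**
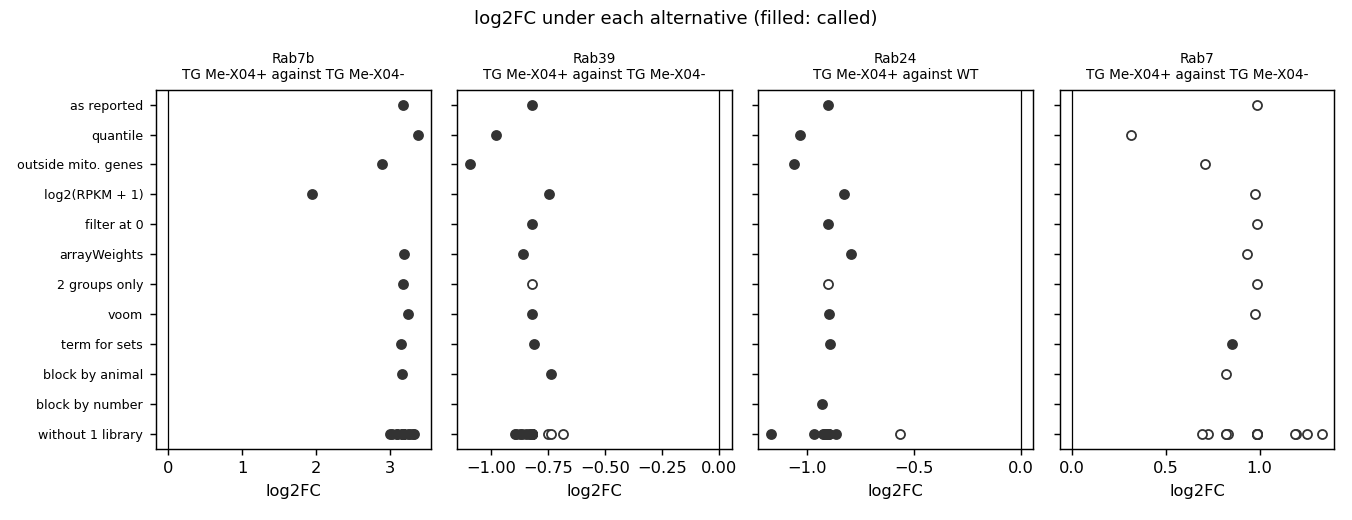
The log2FC of Rab7b, Rab39, Rab24 and Rab7 in the named comparison under each alternative processing (the fit without a fold threshold, whose values equal those reported, is not drawn), with filled points where the gene was called and a row for the fits that each leave out 1 library. Rab7b is filled throughout, from 1.95 to 3.38, Rab39 from -1.09 to -0.69 has 4 open points, Rab24 has 2, and Rab7 is filled only with the term for the sets.

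Across the alternatives, Rab7b was called between the TG populations in 25 of 25 and between TG Me-X04- and WT in 24 of 25, as the plot by alternative shows for the first. Rab39 was called between the TG populations in 22 of 26, and Rab24 against WT in 24 of 26. With the animal as a block, the TG populations gave the same 2 called members, Rab7b and Rab39.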

How the data were processed

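Amplified RNA libraries of 16 sorted microglia samples were read from the table the authors deposited. The authors trimmed reads with Trim Galore (0.4.4), aligned them to GRCm38 with STAR (2.5.4b), assigned them to Gencode genes by featureCounts, dropped genes of low expression and scaled the libraries by trimmed means. The deposited values are log2 RPKM per library with a small prior, and 100% of them could be turned back into whole reads (within 0.01 of a read). The deposited p-values, log2 fold changes and score columns (moderated t, log odds) hold the authors' own comparisons and were not used.

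Groups came from the sample titles. Log2 values of all 17951 genes were tested in a single fit of 3 groups by limma (version 3.58.1, R 4.3.3; moderated tests with a variance trend, two-sided, Benjamini-Hochberg over all genes), in place of the quasi-likelihood test named in the methods of the study, since the deposited values are log2 RPKM. The recovered reads were tested by voom as an alternative, and no quasi-likelihood fit was run. Calls needed an adjusted p under 0.05 and a log2FC of at least 0.7 in size. The fit was run on simulated data with independent noise for each library. These data held neither the sets of libraries nor shared animals, so that run does not bear on either. The members, classes, partner list, tests and alternatives were chosen with earlier results of these data known. Members were named in full when called in TG Me-X04+ against TG Me-X04- or TG Me-X04- against WT and in short when called only in TG Me-X04+ against WT or when highest or most changed in their class. Rab7, Rab12, Rab27a, Rab32, Rab2a and Rab8b were also described after their values were seen. Alternatives were 2 other scalings, log2(RPKM + 1), a filter at a mean log2 RPKM of 0, arrayWeights, only the groups compared, no fold threshold, voom on the recovered reads, a term for the sets, a replicate block, and leaving out each library.

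Positions, gene types and shared words of 50 bases came from Gencode annotation on GRCm38, a later release than the one counted on, in which all 47 gene identifiers were found. Promoters came from RefSeq on GRCm38.p6. Same-numbered TG libraries share an animal label, and each such pair also lay in the same set. Their deviations from the group means correlated at 0.29 to 0.33 over the 4 numbers. Read counts measure counting depth only, and p-values rest on the spread between libraries of different animals within a group.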

Additional observations from a re-analysis of the deposited data

Results flagged for a closer look

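Within the groups of 4 to 7 libraries, 141 sets of values (47 Rab genes in 3 groups) were searched for a single library far from the rest by Dixon's criterion, and 7 were marked. Chance marks about 1 in 20 such groups. WT replicate 3 was lowest for Rab40c at -0.8044 log2 RPKM (25 reads), where the next WT value was 1.51, for Rab35 at 1.729, where the next was 2.57, and for Rab20 at -1.538 (6 reads), where the next was 0.57. TG Me-X04- replicate 2 was highest for Rab33b at 3.007, where the next was 2.67, and for Rab35 at 3.442, where the next was 2.66. TG Me-X04+ replicate 2 was highest for Rab28 at 0.9872, where the next was 0.50, and WT replicate 2 was lowest for Rab18 at 2.711, where the next was 3.58. None of these members was called in a comparison.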

How the results depend on the processing

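Under the scaling by reads outside mitochondrial genes, the median log2FC of the Rab genes was -0.27 between the TG populations and 0.095 for TG Me-X04- against WT, where the median of all genes was 0.13. Leaving out each library in turn, the latter ran from -0.12 to 0.017. The count of Rab genes called between TG Me-X04- and WT was 0 with log2(RPKM + 1) and 0 with the filter at a mean log2 RPKM of 0, which removes Rab7b from the fit, and 1 in each leave-one-out fit. Between the TG populations it was 1 with that filter (Rab39), 1 with only the groups compared (Rab7b), and 1 to 2 without each library in turn. Between TG Me-X04+ and WT it was 5 with a term for the sets (Rab7b, Rab39, Rab24, Rab7 and Rab3d) and 2 to 5 without each library in turn. Calls over all genes shifted too. For TG Me-X04- against WT they numbered 36 as reported, 13 with log2(RPKM + 1) and 19 with the filter, which tests fewer genes. Between the TG populations they numbered 986 as reported, 817 with the filter and 470 with only the groups compared. For TG Me-X04+ against WT they numbered 2562 as reported and 3919 with the term for the sets. No direction of a called member reversed. With the replicate block by animal, the TG populations gave 2 called members. Blocked by number, TG Me-X04- against WT gave 1 and TG Me-X04+ against WT 4, with Rab3d added. WT and TG libraries of the same number come from different animals, with correlations of their deviations from -0.29 to 0.31. The negative values were those of number 3, whose WT and TG libraries lay in different sets. Pairs within a set gave 0.18 to 0.31. Over all 47 members, 3 comparisons and these alternatives (3636 values), 7 lost the call (4 of Rab39, 2 of Rab24 and 1 of Rab7b) and 9 gained it (3 of Rab7, 4 of Rab3d and 2 of Rab27a). The causes were not tested. For members with few reads, such as Rab36, Rab37 and Rab42, these depths limit what can be shown.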
